A study of Danio rerio with 8 samples.

Results

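GFP-only cells of zebrafish embryonal rhabdomyosarcoma were compared with double-negative cells of the same tumours. GFP-only cells were sorted as positive for a myf5-GFP reporter and negative for a mylz2-mCherry reporter, and double-negative cells as negative for both. The samples were chosen by their titles, which gave 4 arrays of 8 (GFP-only and double-negative cells of tumours 1 and 2), and the tumour number paired them. All 15502 probe sets of the array entered the comparison. The tumours arose in fish of the transgenic CG1 strain, 4 times outcrossed, that carried both reporters and had received rag2-kRAS12D as embryos, so that tumour cells of either group derive from fish given activated kras, while cells of a recipient would not carry it. Tumour cells were grafted into syngeneic fish without reporters, recovered more than 20 days later, purified by 2 rounds of cell sorting, and the Ovation Pico WTA kit of NuGEN was used to amplify their RNA. Recipient fish keep blood, pancreas and muscle of their own, and these tissues carry neither reporter. Whether RNA on a double-negative array came from tumour or recipient cells was not measured. The study asked whether the fraction with high myf5-GFP is molecularly distinct from the other tumour cells.

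Embryonal rhabdomyosarcoma is a childhood soft tissue tumour whose cells resemble skeletal muscle precursors that fail to complete differentiation. Myf5 is a transcription factor that commits cells to the muscle lineage, and mylz2, now named mylpfa, encodes a myosin light chain of differentiated fast fibres, so the reporters mark an early and a late step of the same lineage. Leukocytes, red cells and the exocrine pancreas each express a small set of very abundant, lineage-restricted transcripts, such as lysozyme, globins and digestive zymogens.

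A difference below is the GFP-only value minus the double-negative value on the deposited log scale, read as log2, averaged over the 2 tumours, with limma's standard error (SE). Genes are represented by 1 probe set each, 8793 genes in all. Called means an adjusted p under 0.05 by limma with the tumour as a block, fitted on all 8 arrays. Array medians lay between 4.54 and 4.71. The double-negative arrays differed more between the tumours than the GFP-only arrays did, with a median absolute difference of 0.84 against 0.65, and their rank correlation between tumours was 0.671 against 0.818. Within tumour 1 the GFP-only and double-negative arrays had a rank correlation of 0.906 and a median absolute difference of 0.40, and within tumour 2 these were 0.708 and 0.66. Among these 4 arrays the double-negative array of tumour 2 thus stood apart, and values with it left out are given for the main results on the higher side. The mCherry-only array of tumour 2 shared part of this. Over 89 respiratory chain and ATP synthase genes the mean level was 6.46 on the former and 6.48 on the latter. On the other arrays it lay between 7.27 and 7.77. Not every gene followed: the muscle gene desma was at 4.22 and 9.03 on these arrays. Where an array of a population was left out, its lone remaining array was assumed to vary like the other populations. With 2 tumours, p-values measure only the spread between these arrays.

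The reporter's own gene did not pass the test. The signal of myf5 in tumour 1 was 5.47 in the GFP-only and 3.96 in the double-negative fraction, and 5.21 and 4.07 in tumour 2. GFP-only values were above double-negative values in both tumours without overlap, but the difference of 1.33 ± 0.63 had an adjusted p of 0.605. It was 0.63 with GFP-only cells of tumour 1 left out and 2.02 with those of tumour 2 left out. In double-positive cells, also sorted for GFP, myf5 was at 3.81 and 6.02, and in mCherry-only cells at 3.28 and 4.34. The double-positive value of tumour 1 was thus below the double-negative one, so myf5 signal did not follow the GFP gate throughout. The gene behind the mCherry reporter, mylpfa, gave 7.40 against 4.58 in tumour 1 and 6.23 against 4.73 in tumour 2, although both gates exclude mCherry. Its difference was 2.16 ± 0.58 (adjusted p = 0.229), and a second mylpfa probe set differed by 2.14 (adjusted p = 0.378). In cells sorted for mCherry the mylpfa signal lay between 9.21 and 10.87. Over 10 muscle markers (myod1, myog, desma, cdh15, pax7a, pax3a, met, mylpfa, tnnt3a and ckma) the summed log signal was 65.89 and 64.26 on the GFP-only arrays and 54.47 and 40.88 on the double-negative arrays. None of the 10 was called by limma and none was at 0. The double-negative cells of tumour 2 thus held the lowest summed muscle marker signal of these 4 arrays. In double-positive cells the same sum was 72.49 and 70.36, and in mCherry-only cells 70.02 and 62.47. The GFP-only sums were thus not the highest in either tumour.

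The comparison was lopsided: 118 probe sets were lower in GFP-only cells (0.761% of those tested) and 3 were higher (0.0194%). By gene, 79 were lower (0.898%) and 1 was higher (0.0114%). The unadjusted counts were even, with 365 genes lower (4.15%) and 376 higher (4.28%) at p under 0.05, so the asymmetry lay in the large differences that repeated in both tumours. At least 3 log2 units lower in both tumours were 76 probe sets, against 1 that was higher by as much, and at least 4 units lower were 36 against 0. Within tumour 2 alone, 339 probe sets were higher by at least 3 units and 192 lower, whereas in tumour 1 the numbers were 7 and 139. The tumours gave the same sign for 60.6% of probe sets. Calls on the lower side numbered 57 and 34 when GFP-only cells of tumour 1 or tumour 2 were left out and 58 when double-negative cells of tumour 2 were, and calls on the higher side reached 237 when double-negative cells of tumour 1 were left out. Of all genes, 27.6% were lower and 33.1% higher in both tumours.

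**Figure D1:**
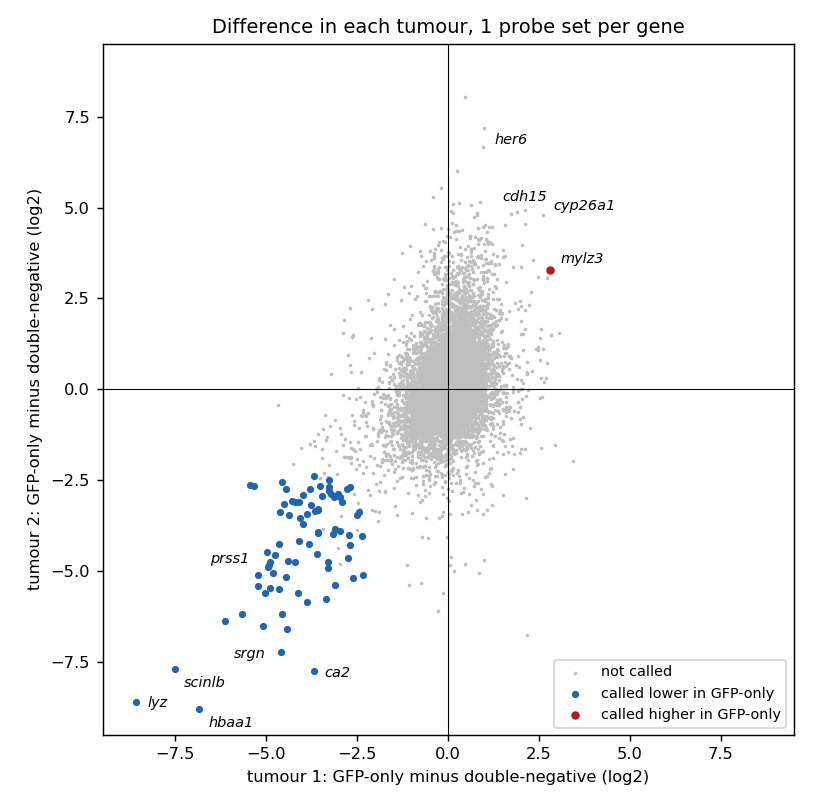
Each point is 1 gene, placed by its GFP-only minus double-negative difference (log2) in tumour 1 on the horizontal axis and in tumour 2 on the vertical axis. The 79 genes called lower form a tail at the lower left that reaches lyz at -8.58 and -8.60, while on the higher side only mylz3 was called and the cloud extends mainly along the tumour 2 axis.

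Genes of the leukocyte actin cytoskeleton and of leukocyte signalling fell together. Of 32 measured members of this list 17 were called lower and none higher, with a median difference of -2.98 (-2.94 in tumour 1 and -2.68 in tumour 2), beside 0.898% called lower and a median of 0.06 over all genes. This and the other lists were chosen with earlier results of these data known, so their counts describe the members and are not tests. Scinlb, a gelsolin-family actin-severing protein, was at 0.35 and 0.68 in GFP-only cells and at 7.87 and 8.38 in double-negative cells of tumours 1 and 2. Both GFP-only values were near the floor of the array and both double-negative values were high. The fitted fall of 7.61 ± 0.47 (adjusted p = 0.000319) rests on those near-floor values, whose distance from background was not measured. Coro1a, the actin-binding coronin of white cells, was at 3.64 and 4.25 against 9.31 and 10.44 (-5.93 ± 0.48, adjusted p = 0.00106). A second, dim coro1a probe set differed by -0.61 and was not called. Lcp1, the actin-bundling L-plastin, was at 3.13 and 1.79 against 8.22 and 8.30. Wasb, the Wiskott-Aldrich protein that activates actin branching, was at 4.57 and 3.51 against 9.14 and 9.69. In each of these genes the groups were separated by more than 4 log2 units in both tumours. The barbed-end capping protein capgb fell by 5.33 ± 0.58 and the G-protein regulator rgs13a by 5.19 ± 0.50, with a second rgs13a probe set also called at -3.58. The pan-leukocyte phosphatase ptprc (CD45) was at 1.98 and 2.97 in GFP-only and at 6.88 and 7.73 in double-negative cells, and the lysosomal protein laptm5 at 3.84 and 4.18 against 8.78 and 9.01. The chemokine receptor cxcr4b, a member of both this list and the muscle progenitor list, was at 3.45 and 3.15 against 8.11 and 7.41 (-4.46 ± 0.50, adjusted p = 0.0029). Its paralogue cxcr4a differed by -3.15 without being called (adjusted p = 0.0661).

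Summed over the 5 measured pan-leukocyte markers (ptprc, coro1a, lcp1, laptm5 and wasb), the log signal was 17.16 and 16.70 in GFP-only cells and 42.33 and 45.17 in double-negative cells. All 5 were called lower and none was at 0 on any array. In mCherry-only cells the same sum was 42.15 and 44.51, so this signal was not particular to the double-negative arrays. In such sorted bulk samples, fewer cells of a type and less RNA per cell cannot be told apart, and the part of leukocytes in the double-negative gate in the other differences was not tested. The list's count of 17 became 11 with GFP-only cells of tumour 1 left out, 7 with those of tumour 2 left out, 11 with double-negative cells of tumour 2 left out and 9 with only the 4 arrays compared. Leaving out GFP-only cells of tumour 2 ended the calls of lcp1 and cxcr4b (adjusted p = 0.058 and 0.0552).

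**Figure D2:**
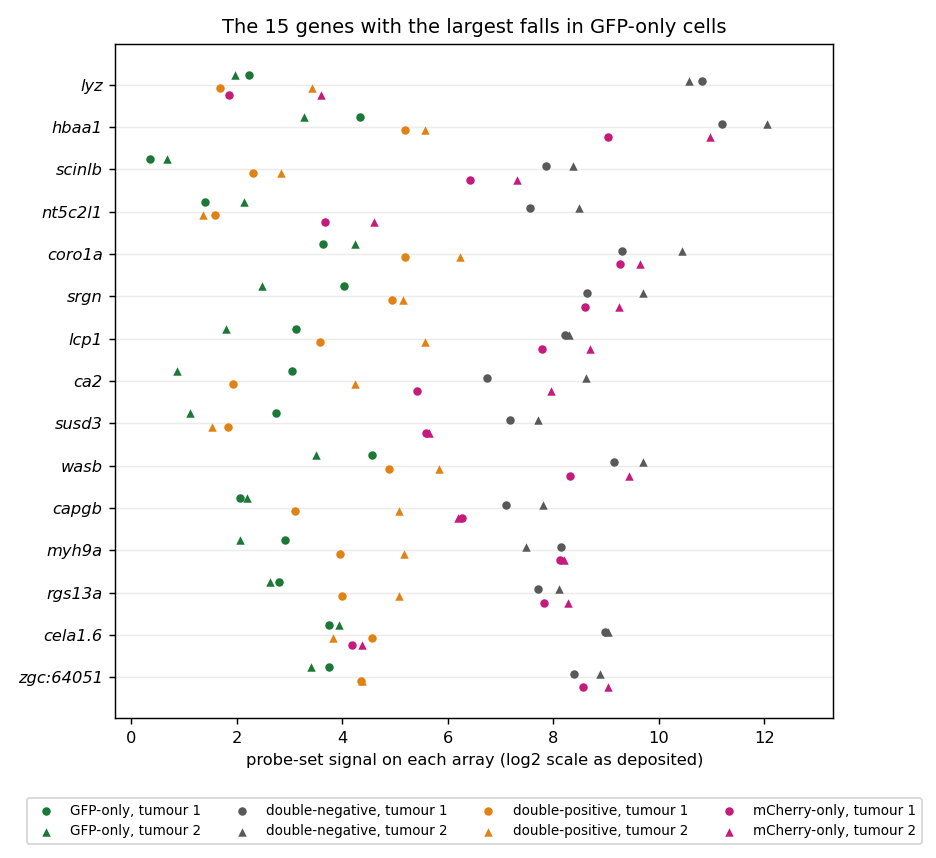
Signal (log2 scale as deposited, horizontal axis) of the 15 genes with the largest falls on each of the 8 arrays, with populations in colours, circles for tumour 1 and triangles for tumour 2. Genes were chosen among those called and lower in both tumours, so GFP-only values lie left of double-negative values by selection. For lyz and cela1.6 the mCherry-only values stay low beside the GFP-only values.

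The largest fall of all was in lyz, the lysozyme of zebrafish neutrophils and some macrophages. It was at 2.23 and 1.97 in GFP-only cells and at 10.81 and 10.57 in double-negative cells. The 4 values formed 2 tight pairs, and the difference was -8.59 ± 0.64 (adjusted p = 0.00101). Srgn, the granule proteoglycan serglycin, was at 4.04 and 2.47 against 8.63 and 9.70 (-5.91 ± 0.65). The NADPH oxidase subunit ncf1 fell by 3.69 ± 0.55 and the collagenase mmp13a by 3.65 ± 0.60. These 4 were the called members among 16 measured neutrophil and granulocyte genes, beside 0.898% called lower over all genes. The median difference of these 16 genes was -2.74 in tumour 1 and -0.71 in tumour 2. Mpx, myeloperoxidase, shows that spread: it was at 2.85 against 7.53 in tumour 1 and at 4.2 against 4.62 in tumour 2, and was not called. Its other probe sets differed by -2.205, -0.05 and 0.36, also without a call. The 5 markers lyz, mpx, srgn, cpa5 and ncf1 summed to 15.32 and 15.36 in GFP-only cells and to 41.53 and 36.28 in double-negative cells. Mmp13a lost its call in 7 of 15 alternative fits, among them the fit without the block (adjusted p = 0.179), and ncf1 lost its call with GFP-only cells of tumour 1 (0.153) or tumour 2 (0.125) left out and with only the 4 arrays compared (0.056). The list's count was 2 without either GFP-only array and 7 without the tumour 2 arrays that lack GFP.

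Macrophage genes moved less. Of 25 measured members only ctss2.2, a cathepsin S of antigen-presenting cells, was called lower, beside 0.898% of all genes. Ctss2.2 was at 3.59 and 3.98 against 6.81 and 6.87 (-3.06 ± 0.49, adjusted p = 0.0208). A second ctss2.2 probe set differed by -2.26 (adjusted p = 0.102), and the call was lost with either GFP-only array or the tumour 2 double-negative array left out, or with only the 4 arrays compared (adjusted p from 0.0647 to 0.217). The list's median was -1.06, and 10 members had an unadjusted p under 0.05 on the lower side, beside 4.15% of all genes. Lgals3bp.1, a secreted galectin-binding glycoprotein, differed by -2.69 (adjusted p = 0.0521) and the scavenger receptor marco by -2.62 (adjusted p = 0.100). The 5 markers marco, csf1ra, c1qc, cd74a and ctss2.2 summed to 21.35 and 20.42 in GFP-only and 32.38 and 29.10 in double-negative cells. In mCherry-only cells the same sum was 48.84 and 47.44, so the double-negative arrays did not hold the highest macrophage signal of the tumours. Among 9 lymphocyte genes, with a median of -0.795, 1 was called lower, beside 0.898% of all genes. It was ikzf1, the Ikaros transcription factor of lymphoid and other blood cells (-4.00 ± 0.53, adjusted p = 0.00892). Leaving out GFP-only cells of tumour 1 ended that call (adjusted p = 0.112). The lymphocyte antimicrobial peptide nkl.4 differed by -2.63 (adjusted p = 0.101).

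Red cell genes were the next group. Hbaa1, the adult alpha globin, was at 4.34 and 3.27 in GFP-only cells and 11.19 and 12.05 in double-negative cells (-7.82 ± 0.67, adjusted p = 0.00117). Globin genes have close copies, so its probe set may read more than 1 of them. Nt5c2l1, a cytosolic nucleotidase listed with the red cell genes, was at 1.4 and 2.13 against 7.55 and 8.49 (-6.26 ± 0.51). Both genes had GFP-only values under 4.5 and double-negative values over 7.5 on every array. Of 27 measured erythroid genes 8 were called lower, beside 0.898% of all genes. The others named by the rule were ca2 and cahz, carbonic anhydrases, slc4a1a, the band 3 anion exchanger, and klf1, the erythroid Krüppel-like factor. They fell by 5.72, 4.08, 4.86 and 4.14, with adjusted p-values between 0.0203 and 0.0331. A second ca2 probe set differed by only -0.89 and was not called. Alas2, the first enzyme of haem synthesis in red cells, was at 2.91 and 3.40 against 6.50 and 7.31 (-3.75 ± 0.51, adjusted p = 0.00983). The 5 markers hbaa1, alas2, slc4a1a, klf1 and gata1a summed to 12.27 and 14.45 in GFP-only and 34.40 and 38.81 in double-negative cells, and the fifth, the transcription factor gata1a, was not called (-2.68, adjusted p = 0.0991). In mCherry-only cells the same sum was 19.31 and 24.51, with hbaa1 at 9.03 and 10.96, so globin signal was not particular to the double-negative arrays. The median of the erythroid list was -0.86. The count of 8 became 2 with GFP-only cells of tumour 2 left out, 3 with double-negative cells of tumour 2 left out, and 5 with GFP-only cells of tumour 1 or either double-positive array left out, or without the block. Ca2, cahz and slc4a1a lost their calls without the block (adjusted p = 0.0739, 0.104 and 0.0534). With GFP-only cells of tumour 2 left out ca2 differed by -3.51 (adjusted p = 0.12), and klf1 lost its call in 7 of 14 alternative fits.

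Digestive enzymes of the exocrine pancreas were also lower in GFP-only cells. Cela1.6, an elastase, was at 3.74 and 3.93 against 8.98 and 9.03 in double-negative cells (-5.17 ± 0.49, adjusted p = 0.00196). Prss1, a trypsin, was at 3.89 and 3.74 against 8.84 and 8.62 (-4.92 ± 0.48, adjusted p = 0.00196). Within each group the tumours differed by under 0.3 log2 units for both enzymes. Of 21 measured genes 8 were called lower and none higher, beside 0.898% and 0.0114% of all genes. The median was -2.1 (-2.97 in tumour 1 and -1.37 in tumour 2), and 17 members were lower in both tumours beside 27.6% of all genes. The chymotrypsins ctrb.1 and ctrl fell by 3.92 and 3.60, the elastase cela1.1 by 3.26 and the amylase amy2a by 3.10. Trypsins, elastases and chymotrypsins are multigene families, and a probe set may read several copies. The 5 markers prss1, cela1.1, amy2a, cpb1 and cel.1 summed to 15.89 and 18.50 in GFP-only and 34.46 and 31.14 in double-negative cells, and to 18.81 and 18.88 in mCherry-only cells. Ptf1a, the transcription factor of acinar cells, chosen after its values were seen, did not follow the enzymes, with differences of -0.60 in tumour 1 and 2.66 in tumour 2. The count of 8 became 2 with GFP-only cells of tumour 1 left out, 3 with those of tumour 2 left out, 3 with double-negative cells of tumour 2 left out, 5 with either mCherry-only array left out and 3 with only the 4 arrays compared.

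Markers of other cell types did not separate the groups to this extent. Among 47 epithelial and skin genes 2 were called lower, beside 0.898% of all genes. Myh9a, a non-muscle myosin heavy chain that blood cells also use, was at 2.91 and 2.07 against 8.14 and 7.48 (-5.32 ± 0.59, adjusted p = 0.00285). The other was spint1a, a membrane protease inhibitor (-3.75 ± 0.61, adjusted p = 0.0216). Spint1a lost its call with GFP-only cells of tumour 1 (0.117) or tumour 2 (0.239) or double-negative cells of tumour 2 (0.0802) left out, and the list then held 1 called gene. The defining epithelial markers epcam, krt4, krt5 and cdh1 summed to 13.17 and 15.65 in GFP-only and 15.46 and 18.12 in double-negative cells, with none called. Of 17 endothelial genes none was called by limma, and the median was -0.57 (-0.72 in tumour 1 and -0.4 in tumour 2). In both tumours 7 were lower and 0 higher, beside 27.6% and 33.1% of all genes. On the lower side 3 had an unadjusted p under 0.05, beside 4.15% of all genes, led by the haematopoietic and endothelial factor tal1 (-2.66, adjusted p = 0.133). Leaving out double-negative cells of tumour 2 brought tal1 past the threshold (-3.73, adjusted p = 0.0304). Liver, intestine, endocrine pancreas, thrombocyte, neural and pigment cell lists held no called gene, with medians between -0.24 and -0.07. The 18 antigen presentation and interferon genes had a median of -0.01 and no call. In both tumours 5 of them were higher and 7 lower, beside 33.1% and 27.6% of all genes. The fibroblast and matrix list of 49 genes held no called gene either, and its median was 0.29. Its member fn1b, a fibronectin, differed by -2.98 (adjusted p = 0.13) and the collagen gene col5a2a by 2.71 (0.29 in tumour 1 and 5.12 in tumour 2).

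Of the 79 genes called lower, 41 belonged to a list and 38 to none, and a further 35 probe sets called lower had no gene name here. The share of all genes that belong to a list was not computed, so this split is descriptive only. The genes outside the lists were led by susd3, a sushi-domain protein, at 2.74 and 1.12 against 7.17 and 7.70 (-5.51 ± 0.58), and zgc:64051, at 3.74 and 3.41 against 8.39 and 8.89 (-5.07 ± 0.48). The called falls ranged from -8.59 to -2.70 with a median of -3.85. In 65 of the 118 probe sets both GFP-only values lay under the lower quartile of their arrays (3.38 and 3.67), and in 86 the double-negative values lay over the upper quartile on both arrays. A total of 20 genes were called lower in every alternative fit in which they were tested, with adjusted p-values up to 0.0495. There were 15 such fits, some of which coincide for this comparison, and the genes included lyz, hbaa1, scinlb, nt5c2l1, coro1a, srgn, wasb, capgb, rgs13a, cela1.6, prss1, laptm5 and ptprc.

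On the higher side, mylz3, a myosin light chain of fast fibres, was the only gene called. It was at 8.28 and 6.79 in GFP-only cells and at 5.49 and 3.51 in double-negative cells. The groups did not overlap, and the difference of 3.04 ± 0.51 had an adjusted p of 0.0244. In double-positive and mCherry-only cells mylz3 lay between 10.44 and 11.94, so GFP-only cells were intermediate. The other probe sets called higher were an unnamed one (2.91, adjusted p = 0.0289) and a second probe set of jun, a subunit of the AP-1 transcription factor, at 8.76 and 7.74 against 6.46 and 4.35 (2.85, adjusted p = 0.0371). The jun call was lost without the block (0.501), with only the 4 arrays compared (0.101), and with any single array left out other than the double-negative array of tumour 1 (0.0563 to 0.497). The unnamed probe set was not called without the block (0.305), with only the 4 arrays (0.0686), or with either GFP-only, either mCherry-only or the tumour 2 double-negative array left out (0.0689 to 0.264). The brighter jun probe set differed by 1.92 and was not called (adjusted p = 0.213). Mylz3 was not called without the block (adjusted p = 0.326), with only the 4 arrays compared (0.0647), with either mCherry-only array left out (0.0626), with GFP-only cells of tumour 1 (0.217) or tumour 2 (0.232) left out, or with double-negative cells of tumour 2 left out (0.21).

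**Figure D3:**
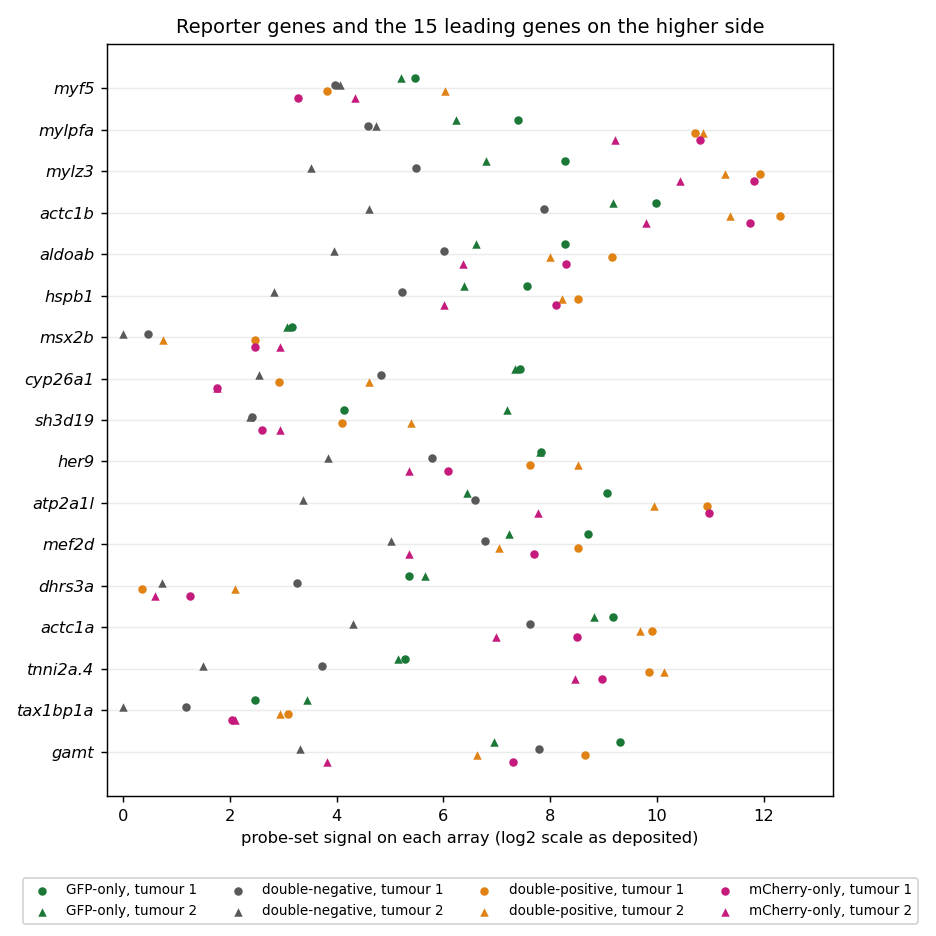
Signal (log2 scale as deposited, horizontal axis) of both reporter genes, mylz3 and the 14 genes with the smallest unadjusted p on the higher side, on each of the 8 arrays (circles tumour 1, triangles tumour 2). Apart from the reporter genes, genes were chosen among those higher in both tumours, so their GFP-only values exceed double-negative values by selection. Both reporter genes were also higher in GFP-only cells in each tumour. The muscle structural genes mylpfa, mylz3 and tnni2a.4 are highest in the mCherry-positive populations.

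Fast muscle fibre genes had mostly higher values in GFP-only cells, with a single call. Of 31 fast muscle fibre genes 1 was called higher, beside 0.0114% of all genes. On the higher side 16 had an unadjusted p under 0.05 and on the lower side none, beside 4.28% and 4.15% of all genes. In both tumours 23 were higher, beside 33.1% of all genes. The median difference was 1.28 in tumour 1 and 0.93 in tumour 2, so it was present in both. Aldoab, the muscle aldolase, was at 8.28 and 6.61 against 6.01 and 3.94 (2.47, adjusted p = 0.0595). Atp2a1l, a calcium pump of the sarcoplasmic reticulum, was at 9.06 and 6.45 against 6.59 and 3.37, so its lower GFP-only value was below its higher double-negative value. Tnni2a.4, a fast troponin I, differed by 2.61, and ckma, muscle creatine kinase, by 0.87 in tumour 1 and 5.16 in tumour 2. Parvalbumins, troponins and myosins have close copies that their probe sets may share. The list's median was 0.91 with double-negative cells of tumour 1 left out and 1.59 with those of tumour 2 left out. The 13 slow and cardiac muscle genes had a median of 0.15 (0.07 in tumour 1 and -0.07 in tumour 2), with none called by limma, 4 higher and 4 lower in both tumours. Their largest difference was in tnnc1a, the slow and cardiac troponin C, at -2.13 (adjusted p = 0.517).

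Commitment and fusion genes, which act as myoblasts withdraw from the cell cycle and join into fibres, had a median difference of 1.57 over 17 genes, 0.76 in tumour 1 and 2.37 in tumour 2. None was called by limma, and 11 had an unadjusted p under 0.05 on the higher side, beside 4.28% of all genes. In both tumours 16 were higher, beside 33.1% of all genes. Actc1b, an actin of early muscle, was at 9.98 and 9.17 in GFP-only cells and 7.88 and 4.61 in double-negative cells (3.33 ± 0.64, adjusted p = 0.0531). A second, bright actc1b probe set differed by 3.26, and dim ones by 0.83 and 0.195, all without a call. The mean over all its probe sets differed by 1.90 (adjusted p = 0.226). Actc1a, a related actin, was at 9.18 and 8.82 against 7.63 and 4.31, and desma, the muscle intermediate filament desmin, at 9.16 and 8.69 against 8.20 and 4.22. In all 3 genes the double-negative array of tumour 2 was by far the lowest of the 4. Without it the difference of actc1b was 2.31, that of actc1a 1.72 and that of desma 0.87, and the list's median was 0.77. With double-negative cells of tumour 1 left out the difference of desma was 4.56, and the list's median was 2.37.

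Upstream regulators of the muscle lineage differed less, with a median of 0.51 over 17 genes and none called. Mef2d, a cofactor of the muscle transcription factors, was at 8.70 and 7.23 against 6.77 and 5.01 (2.08, adjusted p = 0.133). The homeobox factor six4b differed by 2.51 (adjusted p = 0.204), and id1, an inhibitor of basic helix-loop-helix factors, by 0.70 in tumour 1 and 4.74 in tumour 2. Myod1, the determination factor related to myf5, was at 3.41 and 3.10 against 2.39 and 1.90, and the differentiation factor myog at 8.21 and 6.85 against 7.62 and 4.55. Their adjusted p-values were 0.69 and 0.553. For myod1, every value but the GFP-only one of tumour 1 lay under its array's lower quartile, and signal over background was not measured. Pax3a and pax7a, which mark muscle progenitors, differed by 0.00 and -0.20, and 3 dimmer pax7a probe sets differed by -0.42 to 0.52. The 15 surface and signalling genes of muscle progenitors had a median of 1.095 (0.28 in tumour 1 and 1.11 in tumour 2). That median was 0.35 with double-negative cells of tumour 2 left out. Their 1 called member, cxcr4b, was lower, beside 0.898% of all genes. Among them cdh15, the muscle cadherin, was at 8.13 and 6.78 against 6.24 and 1.90 (3.38 ± 0.84, adjusted p = 0.173). Leaving out double-negative cells of tumour 1 brought cdh15 past the threshold (4.82, adjusted p = 0.0115), and leaving out those of tumour 2 gave 1.95. Met, the receptor of hepatocyte growth factor, differed by 1.23 (adjusted p = 0.608) and the receptor fgfr4 by 0.38 in tumour 1 and 4.39 in tumour 2.

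The tumours were started with activated kras, and targets of RAS-MAPK signalling were measured in both groups. Over 32 such genes the median difference was 0.93 (0.38 in tumour 1 and 1.51 in tumour 2), and limma called none of them. At the unadjusted threshold of 0.05, 8 were on the higher side and 3 on the lower side, beside 4.28% and 4.15% of all genes. The feedback transcription factor etv4 was at 9.28 and 7.55 in GFP-only cells and 8.20 and 3.22 in double-negative cells (2.71, adjusted p = 0.335), and differed by 0.98 with double-negative cells of tumour 2 left out. Etv5b, a related factor, was at 8.49 and 7.48 against 7.81 and 3.91. The phosphatase dusp4 differed by -0.41 in tumour 1 and 5.30 in tumour 2, so its mean of 2.45 came from 1 tumour. The list's median was 0.22 with double-negative cells of tumour 2 left out and 1.7 with those of tumour 1 left out.

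Several retinoic acid and Notch genes had high values in GFP-only cells without passing the threshold. Cyp26a1, which degrades retinoic acid, was at 7.43 and 7.34 in GFP-only cells and 4.83 and 2.55 in double-negative cells (3.70 ± 0.79, adjusted p = 0.0867). Dhrs3a, a retinal reductase, was at 5.36 and 5.66 against 3.26 and 0.72 (3.52, adjusted p = 0.143). Both were higher in GFP-only than in any other population: cyp26a1 lay between 1.75 and 4.60 and dhrs3a between 0.36 and 2.09 in the mCherry-positive populations. With double-negative cells of tumour 2 left out the difference of cyp26a1 was 2.29 (adjusted p = 0.552) and that of dhrs3a 2.02, and with those of tumour 1 left out cyp26a1 was called (5.10, adjusted p = 0.00564). The list of 20 retinoic acid genes as a whole had a median of 0.05. Her9, a hairy-related repressor, was at 7.82 and 7.80 against 5.78 and 3.84 (3.0, adjusted p = 0.0989). Her6, a Notch target repressor, was at 7.86 and 7.88 against 6.89 and 1.22, and hey1 differed by 2.04. In double-positive cells her9 was at 7.62 and 8.53 and her6 at 6.55 and 8.87. Hey1 was at 4.94 and 6.35 there, beside 5.74 and 6.19 in GFP-only cells. High values of these Notch genes were thus not particular to GFP-only cells. For her6 the tumour 1 difference was 0.97 and the tumour 2 difference 6.66. In mCherry-only cells her6 was at 2.31 and 1.28, so its low value in tumour 2 was not particular to double-negative cells. With double-negative cells of tumour 2 left out, her6 differed by 0.76 and her9 by 2.0. The 31 Notch pathway genes had a median of 0.24, and limma called none of them. At the unadjusted threshold 4 were higher, beside 4.28% of all genes.

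Msx2b and hspb1 on the higher side belong to no pathway above. Msx2b, a homeobox repressor, was at 3.17 and 3.06 against 0.46 and 0.00, with all 4 values under the arrays' lower quartiles (2.89, adjusted p = 0.0661). Hspb1, a small heat shock protein abundant in muscle, was at 7.56 and 6.38 against 5.22 and 2.82 (2.95, adjusted p = 0.0642). Among 37 Wnt and hedgehog genes the receptor fzd7a differed by 2.1 (0.83 in tumour 1 and 3.37 in tumour 2), and the median was 0.18. The FGF, BMP and TGF-beta list of 43 genes had a median of 0.10, and the Hox and Tbx list of 64 genes one of 0.21, with the caudal factor cdx4 at -2.40 and hoxc6a at 1.94. No gene of these lists was called by limma.

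Genes of general metabolism and growth were without calls, and outside the respiratory chain and proteasome the list medians given here were small. The 89 respiratory chain and ATP synthase genes had a median of 0.76 and 70 were higher in both tumours, the 48 proteasome genes a median of 0.79 with 34 higher in both, beside 33.1% of all genes. Without both tumour 2 arrays that lack GFP these medians were 0.33 and 0.21. Ndufa11, a complex I subunit, was at 8.33 and 9.01 against 8.11 and 4.66, again lowest on the double-negative array of tumour 2. On the mCherry-only array of tumour 2 it was at 4.98. The 68 ribosomal protein genes had a median of 0.16, the 42 DNA replication genes 0.18 and the 44 mitosis genes 0.05, close to the 0.06 of all genes. Over 29 glycolysis genes the median was -0.09, with aldocb, the brain-type aldolase, at -1.98 and gapdh at 2.28. Aldoab, the muscle aldolase given above, also belongs to this list and differed by 2.47.

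**Figure D4:**
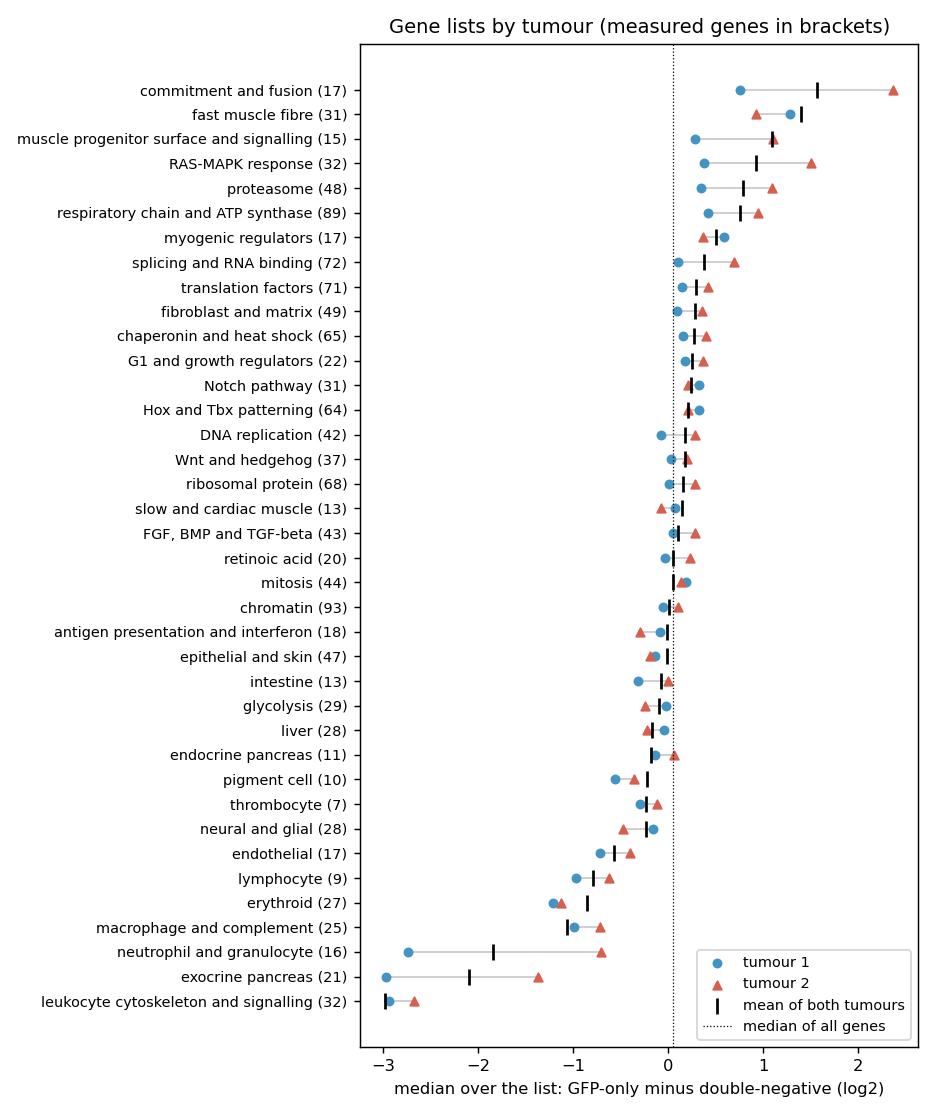
Median GFP-only minus double-negative difference (log2) of each of 38 gene lists, with tumour 1 as circles and tumour 2 as triangles. Bars, labelled mean of both tumours, give the list's median of each gene's mean over both tumours. A dotted line gives the median of all genes. The leukocyte cytoskeleton, exocrine pancreas, neutrophil and macrophage lists lie lowest, and the commitment and fusion, fast muscle and muscle progenitor lists highest.

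The same question can be put to the mCherry-positive cells of these tumours, by setting double-positive against mCherry-only arrays. The differences of this pair share no array with those above, but the variance behind the calls was fitted on all arrays. A small variance, and so a call, is more likely where this pair's difference agrees between the tumours. The count that follows is therefore not independent of the calls. Of the 79 genes lower in GFP-only cells, 62 were also lower in double-positive than in mCherry-only cells in both tumours, beside 27.3% of all genes, with a median of -2.63 against -3.85. Ptprc differed by -4.55 in that pair and by -4.83 in the mCherry-negative pair, and ctss2.2 by -3.39 and -3.06. Exocrine pancreas genes had values near 0 there: prss1 differed by 0.54 in the mCherry-positive pair and cela1.6 by -0.09. Neutrophil genes were mixed, with lyz at -0.17 and mmp13a at -0.42 but srgn at -3.88 and ncf1 at -4.37. Erythroid genes were mixed too. Hbaa1 was at -4.63, ca2 at -3.60, nt5c2l1 at -2.66 and cahz at -2.51, but slc4a1a at -0.99, alas2 at -0.53 and klf1 at -0.15. The test of the difference between both pairs passed for 0 probe sets (0.0%) by limma. At an unadjusted p under 0.05 were 624 of the 15502 tested. Its smallest adjusted p was 0.0557, for lyz, and prss1 had 0.0679 and cela1.6 0.113. The count was 0 without the block as well, 3 without the dimmest probe sets, 4 with a robust variance trend, and up to 21 when 1 array was left out.

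**Figure D5:**
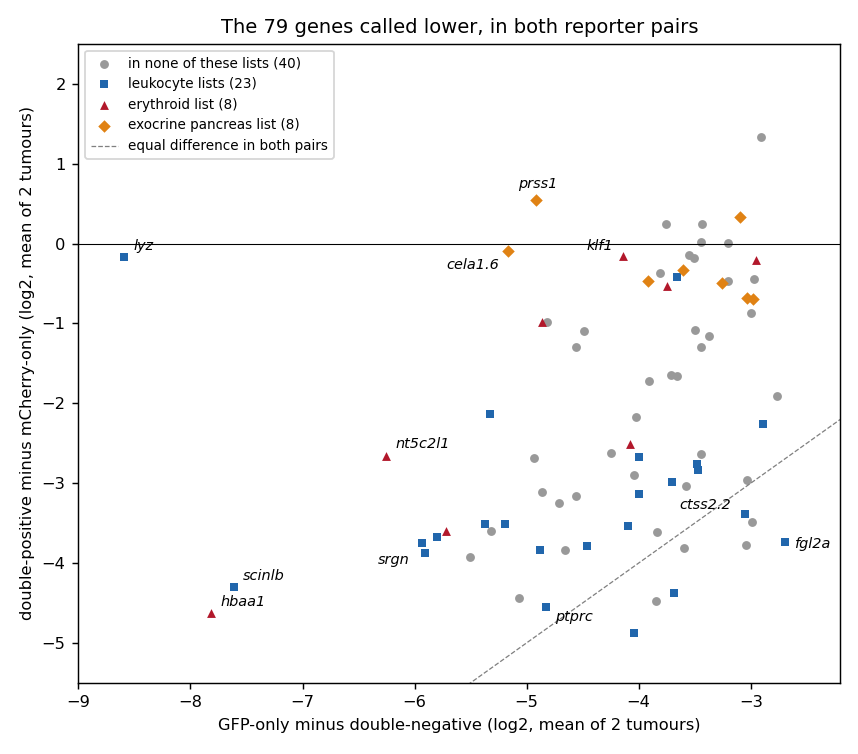
Each of the 79 genes called lower, placed by its GFP-only minus double-negative difference (log2, horizontal axis) and its double-positive minus mCherry-only difference (log2, vertical axis), with colours and symbols for leukocyte, erythroid and exocrine pancreas genes. Most leukocyte genes lie well below 0 on both axes, whereas the 8 pancreas genes and lyz lie near 0 on the vertical axis.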

How the data were processed

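The authors deposited 1 table of log-scale probe-set signals for 8 Affymetrix arrays, read here as log2, and the values were used as deposited. The sources used here do not give the base of the logarithm, the summary method or the scaling, and a natural logarithm is possible. Values ran from 0 to 12.79, and signal over background was not measured. The number of arrays limits the precision.

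Populations and tumour numbers were taken from the labels. Arrays of 1 number come from the same tumour, and the deviations of the GFP-only and double-negative arrays from their means correlated at 0.492 across probe sets, so the tumour number was taken to pair them and entered as a block. Linear models were fitted with limma 3.58.1 (R 4.3.3) on all 8 arrays, with 3 residual degrees of freedom, two-sided, and Benjamini-Hochberg adjustment over 15502 probe sets at 0.05. Errors are limma's SE.

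The platform annotation gave 10795 probe sets 1 gene symbol, 135 several and 4572 none, and 1539 genes had more than 1 probe set. A gene was represented by its probe set with the highest mean over all arrays. Named genes were the reporter genes, the 15 largest falls and rises, up to 6 called or the 3 largest members of each list, and markers. Falls and rises were taken among genes with the same sign in both tumours, and filled by unadjusted p where fewer passed. The 38 gene lists and the comparison were chosen with earlier results of these data known, and lists were counted, not tested. Genome coordinates and sequences were not used here. Alternatives were the fit without the block, only the 4 arrays compared, quantile normalization, a filter on the dimmest 30% of probe sets, a robust variance trend, gene means, and arrays left out.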

Additional observations from a re-analysis of the deposited data

How the results depend on the processing

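The replicate block (the tumour) was in the reported fit. Probe sets called higher numbered 3 in it, 0 with no replicate block, 0 with only the 4 arrays compared, 10 without the dimmest 30% of probe sets, 13 with a robust variance trend, 1 without both tumour 2 arrays that lack GFP, 0 without both mCherry-only arrays, and 0 to 237 when 1 array was left out, with 237 without the double-negative array of tumour 1. Probe sets called lower numbered 118, 80 with no replicate block, 55 with only the 4 arrays compared, and 34 to 167 when 1 array was left out. The paired test of the difference between reporter pairs gave 0, and 3, 4 and 7 without the dimmest probe sets, with the variance trend and without both tumour 2 arrays that lack GFP, and 0 to 21 when 1 array was left out. Of 33 called named genes, none changed sign, 5 lost their call with no replicate block, 8 with only the 4 arrays, 0 with quantile normalization and 15 with GFP-only cells of tumour 2 left out. The cause was not tested. Without both tumour 2 arrays that lack GFP the sign turned for the uncalled cdc6 (-0.22), col5a2a (-0.11), dusp4 (-0.51), eif4ea (-0.37), nfe2 (-0.53) and snrpd3l (-0.09), and as gene means for atp2a2a (-0.80), c9 (-0.14) and pax7a (0.035). With 1 array left out, differences ran from -0.96 to 0.017 for f13a1a.1, -0.79 to 0.79 for pax3a, -0.19 to 2.59 for cdc6, -0.52 to 3.01 for nfe2, -0.11 to 4.995 for dusp4 and -0.13 to 3.31 for eif4ea. Leaving out a mCherry-only or a double-positive array gives the same fit for either tumour, since the population's own mean then takes up the remaining array. The interaction has no value without both mCherry-only arrays or with only the 4 arrays compared.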
